A study of Mus musculus with 10 samples.

Results

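The genes described here are Lrrc8a, Lrrc8b, Lrrc8c, Lrrc8d and Lrrc8e, which encode the subunits of volume-regulated anion channels, and Kcnn4, which encodes a calcium-activated potassium channel. They are 6 of the 19937 genes that carried a probe set with 1 gene symbol on the array. Each had 1 such probe set, so all 6 were measured and none was lost to a filter. The LRRC8 genes were taken as a family, and the set was chosen by log2 levels of Lrrc8e and Kcnn4 in these arrays: Lrrc8e because its level in Pax5 G183S replicates 2 to 4 lay apart from that with Pax5 WT, and Kcnn4 because it was lower with Pax5 G183S than with empty vector. The differences of these 2 genes, and all differences between Pax5 G183S and Pax5 WT, are therefore given as descriptions without a test.

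The cells were J558, a mouse myeloma line that resembles plasma cells, infected with the retroviral vector MSCV-PIG, which carries puromycin resistance and green fluorescent protein. The 3 groups were empty vector (3 arrays), wild-type Pax5 (Pax5 WT, 3 arrays) and the mutant Pax5 G183S (4 arrays), each array from a replicate that the labels call independent and biological. All cells, controls included, spent 5 to 7 days in puromycin before being sorted by fluorescent protein and IgM; the direction of the IgM gate is not given in the sources used here. Pax5, which fixes B-cell identity and is silenced in plasma cells, was expressed here from a retroviral vector in an established line, and p-values measure the spread between these cultures. The Pax5 probe set read 6.84 to 7.10 log2 units with empty vector, 10.05 to 10.67 with Pax5 WT and 9.38 to 10.36 with Pax5 G183S.

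Volume-regulated anion channels open when a cell swells and let chloride and small organic solutes leave. Lrrc8a encodes the subunit that every such channel needs, and the products of Lrrc8b to Lrrc8e are partner subunits that set conductance and which solutes pass, among them amino acids, taurine and the signalling dinucleotide cGAMP. Potassium leaves at the same time through potassium channels, and in lymphocytes the channel encoded by Kcnn4, which calcium opens through bound calmodulin, also holds the membrane potential that drives calcium entry. Lrrc8a has a known link to the B lineage: its human counterpart was first described at a chromosome break in agammaglobulinaemia with a lack of B cells.

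Plasma-cell identity of the line was visible in its marker genes. The 9 measured plasma-cell markers of 10 listed averaged 11.71 to 11.90 log2 units with empty vector, 11.43 to 11.87 with Pax5 WT and 10.96 to 11.87 with Pax5 G183S. Markers of myeloid, erythroid and stromal cells averaged between 5.95 and 6.48 log2 units in every array. Array medians lay between 6.81 and 6.94 log2 units. Pax5 G183S replicate 1 stood apart from its group: on the first principal component, with 42.2% of the variance, it scored 24.8 where replicates 2, 3 and 4 scored -8.75, -21.6 and -12.6 and the Pax5 WT arrays 39.6, 17.5 and 2.12. Values without this array are given beside those that rest on it.

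The start regions of the members differ in base composition. All 6 genes had a window from 250 bases before to 50 bases after an annotated start in RefSeq (GRCm38.p6), 7 windows in all because Lrrc8d has a pair of them. Printed here are those of Lrrc8b, Lrrc8e and Kcnn4, the genes whose empty-vector and Pax5 WT arrays did not overlap. They lie at chr5:105415525-105415824, chr8:4226577-4226876 and chr7:24370013-24370312, each on the plus strand, with CG dinucleotides in capitals. Each begins inside its gene model, and these models start at chr5:105415206, chr8:4224268 and chr7:24369826. Any start farther upstream is therefore not covered.
Lrrc8b: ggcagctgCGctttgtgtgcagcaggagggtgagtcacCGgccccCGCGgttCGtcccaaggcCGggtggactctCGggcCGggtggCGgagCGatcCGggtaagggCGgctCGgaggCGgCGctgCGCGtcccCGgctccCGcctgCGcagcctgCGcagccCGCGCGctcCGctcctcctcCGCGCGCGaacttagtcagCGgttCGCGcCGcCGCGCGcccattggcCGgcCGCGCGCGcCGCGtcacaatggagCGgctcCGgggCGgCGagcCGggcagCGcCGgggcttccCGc
Lrrc8e: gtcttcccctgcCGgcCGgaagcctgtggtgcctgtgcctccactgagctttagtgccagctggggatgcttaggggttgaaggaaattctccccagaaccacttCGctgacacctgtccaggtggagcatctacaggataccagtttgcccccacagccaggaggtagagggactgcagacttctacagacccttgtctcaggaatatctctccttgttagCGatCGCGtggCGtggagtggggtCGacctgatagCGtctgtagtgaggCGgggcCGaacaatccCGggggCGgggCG
Kcnn4: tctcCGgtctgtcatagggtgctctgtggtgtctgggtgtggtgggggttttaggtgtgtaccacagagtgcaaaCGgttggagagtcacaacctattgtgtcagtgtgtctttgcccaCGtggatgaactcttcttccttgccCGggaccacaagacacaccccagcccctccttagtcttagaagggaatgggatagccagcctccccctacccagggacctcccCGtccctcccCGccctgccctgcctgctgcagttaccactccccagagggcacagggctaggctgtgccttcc
The Lrrc8b window held 51 CG dinucleotides, more than or as many as 99.4% of the 32841 windows of the same length. The Lrrc8a window held 32, that of Lrrc8c 44 and those of Lrrc8d 31 and 27. Lrrc8e had 14 and Kcnn4 had 6, against a median of 7 over all windows. Lrrc8e and Kcnn4 thus had the fewest CG dinucleotides of the 6 and also the widest range of expression over the arrays. Both were chosen on their levels in these arrays, which favours a wide range. The CG count was a feature chosen after the values were seen and is given with no test. The core of the Pax5 recognition sequence, GCGTGAC on either strand, was in 0 of the 7 windows and in 2.09% of all windows, which says only that these letters are not in these stretches.

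Lrrc8a encodes the obligatory channel subunit. It read 9.56, 9.80 and 9.76 log2 units with empty vector, 9.12, 9.22 and 9.56 with Pax5 WT and 9.12, 9.78, 9.66 and 9.72 with Pax5 G183S replicates 1 to 4. The lowest arrays were thus Pax5 G183S replicate 1 and Pax5 WT replicates 1 and 2, and the groups overlapped. Fewer cells with a transcript and less transcript per cell cannot be told apart in RNA from a whole culture. The log2 difference between Pax5 WT and empty vector was -0.41 ± 0.18 SE and did not pass (limma adjusted p = 0.297, Benjamini-Hochberg over all genes). Its 95% interval, not adjusted for the number of genes, ran from -0.80 to -0.01. Between Pax5 G183S and empty vector it was -0.14 ± 0.16 SE (interval -0.50 to 0.23, limma adjusted p = 0.867). Without Pax5 G183S replicate 1 the latter became 0.01.

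Lrrc8b, a partner subunit gene, was the only member with higher values in every Pax5 array than in any empty-vector array. It read 9.89, 10.06 and 9.84 log2 units with empty vector, 10.39, 10.10 and 10.71 with Pax5 WT and 10.06, 10.45, 10.22 and 10.35 with Pax5 G183S. The gap was narrow, since Pax5 G183S replicate 1 and empty-vector replicate 2 both rounded to 10.06. The log2 difference from empty vector was 0.47 ± 0.15 SE with Pax5 WT (interval 0.13 to 0.81, limma adjusted p = 0.155) and 0.35 ± 0.14 SE with Pax5 G183S (interval 0.03 to 0.66, limma adjusted p = 0.385). Neither passed.

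Lrrc8c and Lrrc8d, which lie near Lrrc8b on chromosome 5 and encode further partner subunits, varied less between the group means. Lrrc8c read 11.00, 11.26 and 11.15 log2 units with empty vector, 10.64, 10.85 and 11.35 with Pax5 WT and 11.00, 10.88, 11.38 and 10.97 with Pax5 G183S. The Pax5 WT arrays spanned both ends of this range, from the lowest array of all to the second highest. Lrrc8c differed from empty vector by -0.19 ± 0.18 SE log2 units with Pax5 WT (interval -0.60 to 0.21, limma adjusted p = 0.668) and by -0.08 ± 0.17 with Pax5 G183S (interval -0.46 to 0.30, limma adjusted p = 0.940). The first became -0.04 without Pax5 WT replicate 1 and -0.39 without Pax5 WT replicate 3, and with 1 array left out in turn the second ran from -0.19 to -0.02. Lrrc8d read 11.49, 11.55 and 11.38 log2 units with empty vector, 11.03, 11.32 and 11.53 with Pax5 WT and 11.07, 11.47, 11.43 and 11.59 with Pax5 G183S. Its lowest arrays were Pax5 WT replicate 1 and Pax5 G183S replicate 1, as for Lrrc8a. The log2 differences from empty vector were -0.18 ± 0.15 SE with Pax5 WT (interval -0.51 to 0.15, limma adjusted p = 0.610) and -0.09 ± 0.14 with Pax5 G183S (interval -0.40 to 0.22, limma adjusted p = 0.910), the second of which became 0.02 without Pax5 G183S replicate 1. The first became -0.05 without Pax5 WT replicate 1 and -0.30 without Pax5 WT replicate 3.

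Of the 4 subunit genes tested, Lrrc8a to Lrrc8d, 0 passed limma's adjusted p of 0.05 in either comparison, where 1.88% of all genes passed between Pax5 WT and empty vector and 0.311% between Pax5 G183S and empty vector. At an unadjusted p under 0.05 there were 2 in the first comparison, Lrrc8a and Lrrc8b, where 15.9% of all genes were, and 1 in the second, Lrrc8b, where 11.3% of all genes were. Their median log2 difference from empty vector was -0.19 with Pax5 WT, beside 0.01 over all genes, and -0.08 with Pax5 G183S, beside -0.0033 over all genes. Both comparisons use the same empty-vector arrays. With 3 or 4 cultures a group, the intervals leave room for changes of up to 0.81 log2 units in these genes.

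**Figure D1:**
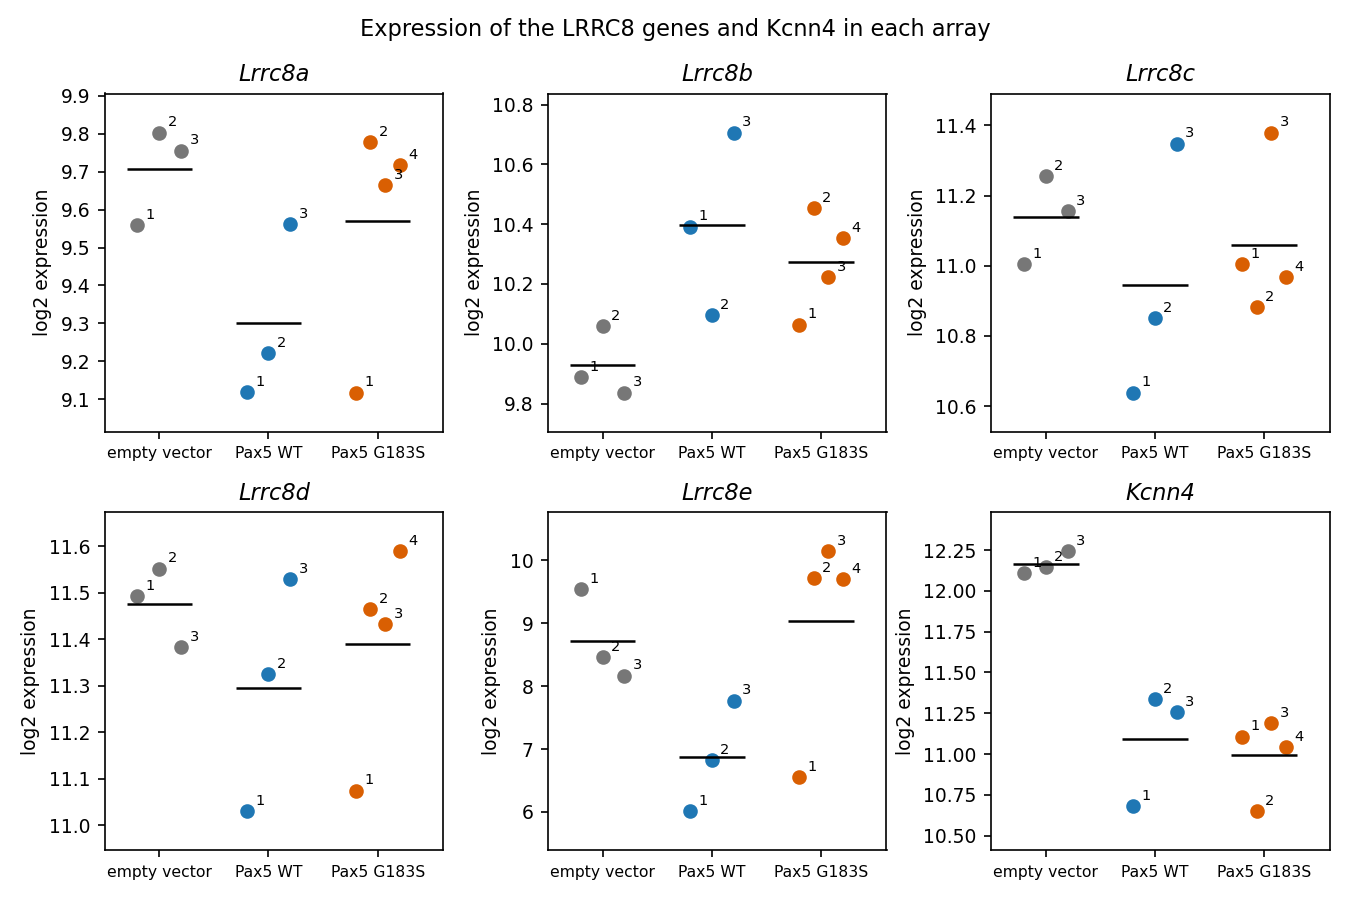
Log2 expression (vertical axes, a separate scale for each gene) of the 5 LRRC8 genes and Kcnn4 in the 10 arrays, by group (horizontal axes); points are arrays numbered by replicate and bars are group means. Lrrc8e spans 6.01 to 10.15 log2 units with Pax5 G183S replicate 1 among the Pax5 WT arrays, and the empty-vector arrays of Kcnn4 lie above every Pax5 array.

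Lrrc8e, the partner subunit gene singled out for its pattern, had by far the widest range of the family. It read 9.54, 8.46 and 8.17 log2 units with empty vector, 6.01, 6.83 and 7.77 with Pax5 WT, and 6.56, 9.72, 10.15 and 9.69 with Pax5 G183S replicates 1 to 4. Every Pax5 WT array was below every empty-vector array, and Pax5 G183S replicates 2 to 4 were above all of them, while replicate 1 lay between Pax5 WT replicates 1 and 2. The range of 4.13 log2 units, 17.5-fold between the lowest and the highest array, was exceeded by 16 of the 19937 genes (0.0803%). This rank is a description only, since Lrrc8e was chosen on its levels in these arrays. The other LRRC8 genes ranged over 0.56 to 0.87 log2 units.

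In group means Lrrc8e stood at 8.72 ± 0.72 log2 units with empty vector (SD, n = 3), 6.87 ± 0.88 with Pax5 WT (n = 3) and 9.03 ± 1.66 with Pax5 G183S (n = 4). The order of the means was Pax5 WT, empty vector, Pax5 G183S, and the last 2 of these overlapped. The log2 difference between Pax5 WT and empty vector was -1.85 ± 0.86 SE, that between Pax5 G183S and empty vector 0.31 ± 0.80 SE and that between Pax5 G183S and Pax5 WT 2.16 ± 0.80 SE. Without Pax5 G183S replicate 1 these were -1.85 ± 0.44, 1.13 ± 0.44 and 2.98 ± 0.44 log2 units, and without Pax5 WT replicate 3 the first was -2.30. These values are descriptions, since the gene was chosen for them. Pax5 WT replicates 1 and 2 and Pax5 G183S replicate 1 read below 7.26 log2 units, the median of all probe sets with 1 symbol, and without a background signal it is not known how far these low readings reflect transcript. The lowest 4 arrays for Lrrc8e were those with a score above 0 on the first principal component, namely the 3 Pax5 WT arrays and Pax5 G183S replicate 1; the part of this array-wide difference in the Lrrc8e values was not tested.

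Across the family, Pax5 WT arrays did not overlap with empty-vector arrays for 3 of the 6 members (Lrrc8b higher, Lrrc8e and Kcnn4 lower), where 24% of all genes did not overlap. Between Pax5 G183S and empty vector this held for 2 of 6 (Lrrc8b and Kcnn4), beside 11.6% of all genes. Between Pax5 G183S and Pax5 WT it held for 0 of 6, beside 6.5% of all genes. Without Pax5 G183S replicate 1 it held in the last comparison for 2 of 6, Lrrc8a and Lrrc8e, both higher with Pax5 G183S, where 24.5% of all genes did not overlap. Lrrc8e and Kcnn4 were chosen on levels in these groups, which fixed part of these counts, so nothing is read from any of them. The log2 difference of Lrrc8a between Pax5 G183S and Pax5 WT was 0.27 ± 0.16 SE with all arrays and 0.42 ± 0.12 without replicate 1; that of Lrrc8b was -0.13 ± 0.14, that of Lrrc8c 0.11 ± 0.17 and that of Lrrc8d 0.10 ± 0.14 with all arrays.

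Kcnn4 was lower in all 7 cultures that carried Pax5. It read 12.11, 12.15 and 12.24 log2 units with empty vector, 10.68, 11.34 and 11.26 with Pax5 WT, and 11.11, 10.65, 11.19 and 11.04 with Pax5 G183S. The empty-vector arrays lay within 0.13 log2 units of each other and every Pax5 array lay below them, while the Pax5 WT and Pax5 G183S arrays overlapped. Group means were 12.17 ± 0.07 with empty vector (SD, n = 3), 11.09 ± 0.36 with Pax5 WT (n = 3) and 11.00 ± 0.24 with Pax5 G183S (n = 4). The log2 difference from empty vector was -1.08 ± 0.18 SE with Pax5 WT, a 2.11-fold lower level, and -1.17 ± 0.17 SE with Pax5 G183S, a 2.25-fold lower level. Between Pax5 G183S and Pax5 WT the log2 difference was -0.09 ± 0.17 SE, with an interval from -0.47 to 0.28. Pax5 G183S replicate 1, which stood apart for Lrrc8e and Lrrc8a, lay inside its group for Kcnn4, and the difference from empty vector was -1.21 without it. The range of 1.59 log2 units over the arrays was exceeded by 2.74% of all genes, a description only, since Kcnn4 was chosen on its levels in these arrays.

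Kcnn4 is also expressed by T cells and macrophages, and the mean level of T-cell markers was lower in every Pax5 array than in any empty-vector array. The 11 measured T-cell markers of 12 listed averaged 6.91 to 7.10 log2 units with empty vector, 6.55 to 6.83 with Pax5 WT and 6.61 to 6.88 with Pax5 G183S. Of these 11, 1 fell in each comparison, the T-cell receptor complex gene Cd3g, chosen after its values were seen (log2 difference -1.09 ± 0.16 SE with Pax5 WT, limma adjusted p = 0.0172, and -1.15 ± 0.15 with Pax5 G183S, limma adjusted p = 0.0171). Over all genes, 1.88% passed limma's adjusted threshold with Pax5 WT and 0.311% with Pax5 G183S. At limma's unadjusted p under 0.05 there were 3 markers in each, beside 15.9% and 11.3% of all genes. Of the 11, 5 had a negative difference with Pax5 WT and 9 with Pax5 G183S. Their median log2 difference was 0.03 with Pax5 WT and -0.05 with Pax5 G183S, so the lower mean rested on part of the list. The most negative differences were those of the coreceptor gene Cd4, also named after its values were seen (-1.39 ± 0.44 SE with Pax5 WT, limma adjusted p = 0.1495, and -1.41 ± 0.41 with Pax5 G183S, limma adjusted p = 0.181). Cd4 read 7.09, 9.29 and 7.60 log2 units with empty vector and 6.37 to 6.77 in the 7 Pax5 arrays. After Cd4 and Cd3g came Cd28 and Cd2, at -0.47 and -0.38 log2 units with Pax5 WT. With Pax5 G183S the order was Cd2 and Cd28, at -0.40 and -0.33. Neither passed. Cd28 read 10.99 to 12.42 log2 units over the arrays, above every other marker of the list. Cd3e, a defining T-cell gene, read 6.50 to 6.59 log2 units with empty vector, 6.57 to 6.64 with Pax5 WT and 6.55 to 6.72 with Pax5 G183S. The 12 myeloid markers, all measured, averaged 6.21 to 6.34 log2 units with empty vector, 5.95 to 6.22 with Pax5 WT and 6.09 to 6.48 with Pax5 G183S, and among them Csf1r, a defining macrophage gene, read 5.74 to 5.87, 5.69 to 5.84 and 5.80 to 5.92 in the same order. Of the plasma-cell markers, which J558 cells share, Sdc1 (CD138) read 11.22 to 11.51, 10.45 to 10.97 and 9.73 to 11.03 log2 units in that order and Tnfrsf17 (BCMA) 10.83 to 11.36, 9.88 to 11.12 and 7.72 to 10.25. None of the 9 plasma-cell markers passed limma's threshold in either comparison. At limma's unadjusted p under 0.05 there were 2 with Pax5 WT, beside 15.9% of all genes, and 4 with Pax5 G183S, beside 11.3%. Of the 9, 6 had a negative difference with Pax5 WT (median -0.23 log2 units) and 8 with Pax5 G183S (median -0.33). The part of any of these cell type markers in the Kcnn4 values was not tested.

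**Figure D2:**
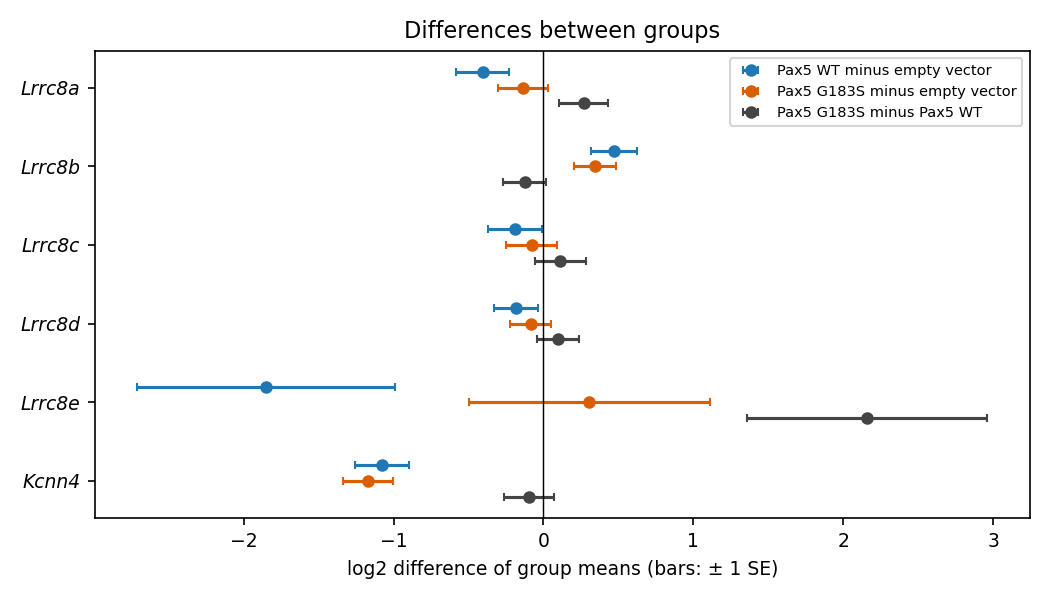
Log2 differences between group means (horizontal axis) for the 6 genes (vertical axis) in the 3 comparisons, which share arrays; bars are 1 standard error of the fit. Kcnn4 lies near -1 against empty vector with both Pax5 forms, whereas Lrrc8e has the widest bars and lies at -1.85, 0.31 and 2.16.

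The genes whose values over the 10 arrays were most alike to those of Lrrc8e were Pcbd1, Rem2, Tmem184a, Acod1 and Celsr2. Likeness was the root mean square difference between log2 values after each gene was centred on its own mean, and no test applies. This difference was 0.46 log2 units for Pcbd1, which encodes a dehydratase of pterin metabolism, 0.51 for the small GTPase gene Rem2, 0.56 for Tmem184a, 0.70 for Acod1, which encodes the itaconate-forming enzyme, and 0.72 for the cadherin-family gene Celsr2, where the spread of Lrrc8e about its own mean was 1.40. Pcbd1 read 9.49, 8.73 and 8.28 log2 units with empty vector, 7.28, 7.54 and 8.49 with Pax5 WT, and 7.33, 9.51, 10.03 and 9.74 with Pax5 G183S. Rem2 read 8.93, 8.63 and 8.001, then 6.63, 6.58 and 7.80, and 6.92, 8.78, 9.25 and 9.01 log2 units in the same order. In both genes Pax5 G183S replicate 1 was among the Pax5 WT arrays, which their choice by likeness to Lrrc8e over these same arrays favours. Acod1 differed in that Pax5 WT replicate 3, at 9.39 log2 units, was above every empty-vector array.

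For Kcnn4 the most alike genes were Vps26b (root mean square difference 0.14 log2 units), the adaptor gene Sh2d3c (0.14), Rom1 (0.17), the autophagy regulator gene Rubcn (0.17) and the tetraspanin gene Tspan14 (0.17), where the spread of Kcnn4 was 0.56. Vps26b, a subunit gene of the retromer sorting complex, read 10.73, 10.96 and 10.95 log2 units with empty vector, 9.68, 10.04 and 9.80 with Pax5 WT, and 9.87, 9.60, 10.08 and 9.79 with Pax5 G183S. The lowest values of Vps26b were those of Pax5 WT replicate 1 and Pax5 G183S replicate 2, as its choice by likeness to Kcnn4 favours. Tspan14 read 11.27, 11.42 and 11.41 with empty vector and 9.66 to 10.37 log2 units in the 7 Pax5 arrays.

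**Figure D3:**
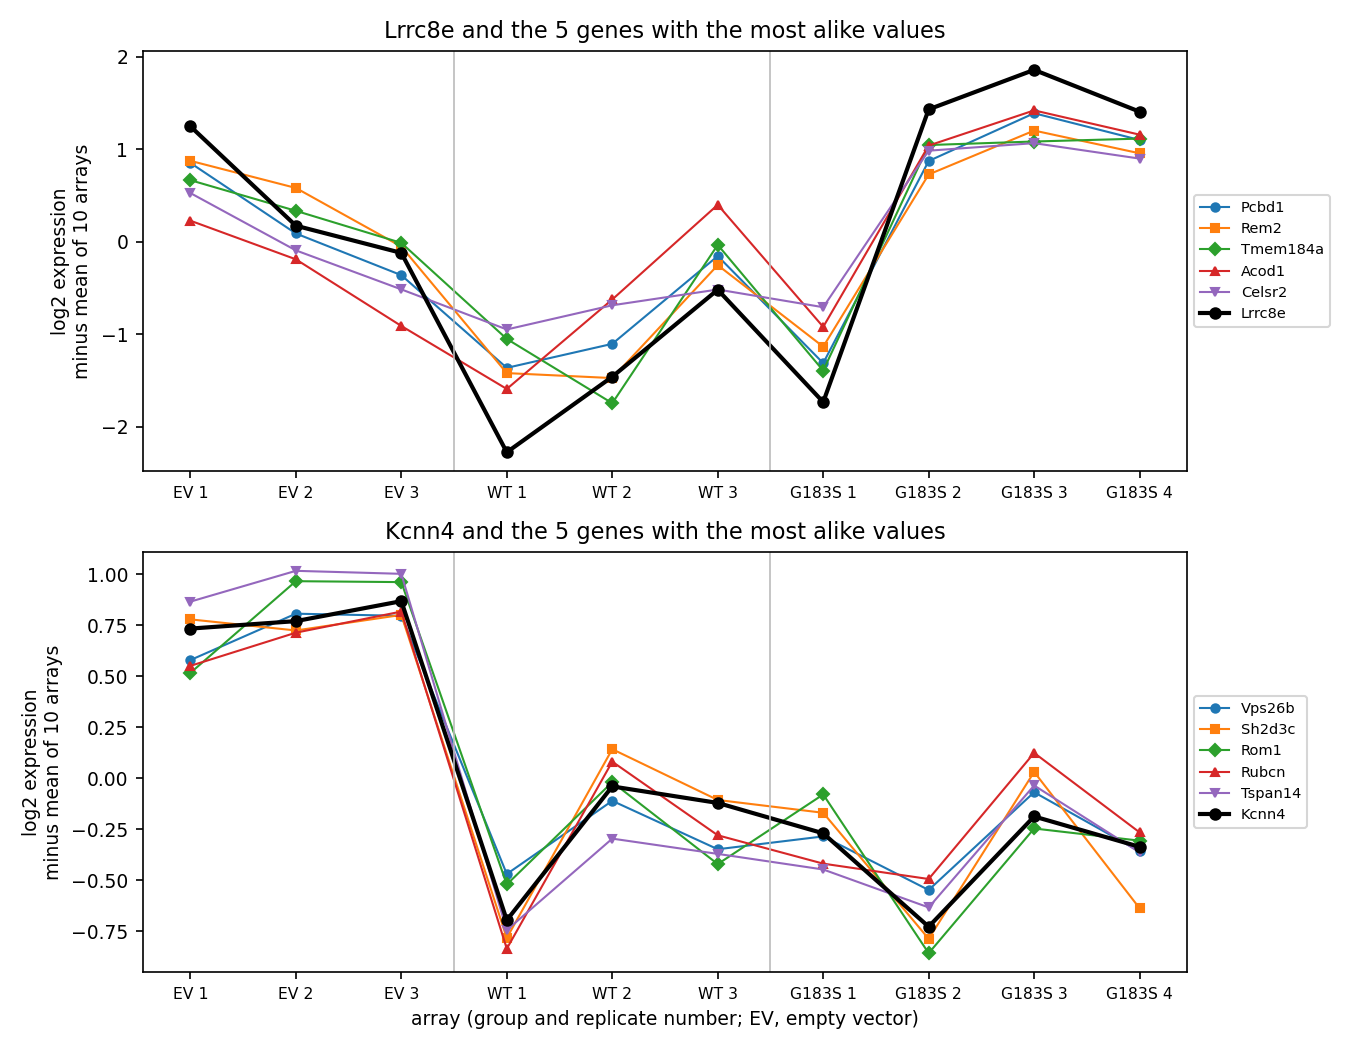
Log2 expression minus each gene's mean over the 10 arrays (vertical axes) by array (horizontal axis) for Lrrc8e (upper panel) and Kcnn4 (lower panel), in black, with the 5 genes of the smallest root mean square difference from each in colour. The upper genes lie below their means in Pax5 WT replicates 1 and 2 and Pax5 G183S replicate 1 and above them in Pax5 G183S replicates 2 to 4; the lower genes are highest in the 3 empty-vector arrays.

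Few other genes of ion and volume control passed limma's adjusted threshold. Of 114 genes listed in 6 groups, 105 were measured; between Pax5 WT and empty vector 3 fell and 0 rose (2.86%, beside 1.88% of all genes), and their median log2 difference was -0.01, beside 0.01 over all genes. Between Pax5 G183S and empty vector 0 of 105 passed limma's threshold, beside 0.311% of all genes. At an unadjusted p under 0.05 there were 24 of 105 in the first comparison, beside 15.9% of all genes, and 15 of 105 in the second, beside 11.3%.

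Among 24 other chloride channel genes measured, 1 fell with Pax5 WT at limma's adjusted threshold, which 1.88% of all genes passed. At limma's unadjusted p under 0.05 there were 10 with Pax5 WT, beside 15.9% of all genes, and 4 with Pax5 G183S, beside 11.3%. Of the 24, 15 had a negative difference with Pax5 WT and 13 with Pax5 G183S. The gene that passed the adjusted threshold was Ano6, which encodes a calcium-activated scramblase and ion channel. It read 10.13, 10.25 and 10.24 log2 units with empty vector, 9.57, 9.73 and 9.47 with Pax5 WT and 9.60, 9.84, 9.92 and 10.04 with Pax5 G183S, so that every Pax5 array was below every empty-vector array. The log2 difference was -0.62 ± 0.11 SE with Pax5 WT (limma adjusted p = 0.0302) and -0.36 ± 0.10 with Pax5 G183S, which did not pass (limma adjusted p = 0.179). With Pax5 WT it no longer passed without empty-vector replicates 1, 2 or 3 (limma adjusted p = 0.0671, 0.136 and 0.127), Pax5 WT replicates 1 or 3 (0.0893 and 0.0664) or Pax5 G183S replicate 2 (0.0520).

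Of 15 genes of cation-chloride cotransport, 3 were at limma's unadjusted p under 0.05 in each comparison, beside 15.9% and 11.3% of all genes. At the adjusted threshold 1 fell with Pax5 WT, Slc12a9, a member of the cotransporter family. It read 8.96, 9.14 and 9.20 log2 units with empty vector, 8.66, 8.67 and 8.77 with Pax5 WT and 8.86, 8.84, 8.77 and 8.92 with Pax5 G183S. The log2 difference with Pax5 WT was -0.40 ± 0.08 SE (limma adjusted p = 0.0378), and that with Pax5 G183S was -0.25 ± 0.07 (limma adjusted p = 0.179). The call was lost with arrays centred on their medians (limma adjusted p = 0.0509) or quantile-normalized (0.0594), with trend and robust moderation (0.0855), with the replicate block (0.0718) and with only the arrays compared (0.0604). It was also lost without empty-vector replicates 2 or 3 (limma adjusted p = 0.162 and 0.140), Pax5 WT replicates 1, 2 or 3 (0.112, 0.102 and 0.0530) or Pax5 G183S replicates 2 or 4 (0.0626 and 0.0564).

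Of 16 osmolyte and water genes, 4 were at limma's unadjusted p under 0.05 with Pax5 WT, beside 15.9% of all genes. With Pax5 G183S there were 2, beside 11.3%. At the adjusted threshold 1 fell with Pax5 WT, the aquaporin gene Aqp11. It read 6.99, 7.25 and 7.23 log2 units with empty vector, 6.47, 6.46 and 6.40 with Pax5 WT and 6.88, 6.45, 6.68 and 6.39 with Pax5 G183S, all below the median of all probe sets with 1 symbol. The log2 difference was -0.71 ± 0.13 SE with Pax5 WT (limma adjusted p = 0.0269) and -0.56 ± 0.12 with Pax5 G183S (limma adjusted p = 0.0843). With Pax5 WT it did not pass without empty-vector replicates 2 or 3 (limma adjusted p = 0.135 and 0.124) or Pax5 WT replicates 1, 2 or 3 (0.0774, 0.0675 and 0.0602), or with the replicate block (0.0585). With Pax5 G183S it passed without Pax5 G183S replicate 1 (limma adjusted p = 0.0199).

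In the other groups 0 genes passed limma's threshold in either comparison, beside 1.88% and 0.311% of all genes. These groups were 20 potassium channel genes (3 and 2 at an unadjusted p under 0.05), 19 genes of calcium entry and Kcnn4 control (2 and 2) and 11 genes of cGAMP and nucleotide transport (2 and 2). Over all genes, 15.9% and 11.3% were under that unadjusted p. Kcnk5, a potassium channel gene known for its part in volume regulation, read 8.60, 9.57 and 9.24 log2 units with empty vector and 9.91, 10.07 and 9.96 with Pax5 WT (log2 difference 0.85 ± 0.31 SE, limma adjusted p = 0.214). Kcnk2 differed by 0.22 ± 0.07 log2 units (limma adjusted p = 0.146). Orai1, the pore subunit gene of store-operated calcium entry, which the Kcnn4 channel supports, differed by -0.36 ± 0.08 log2 units with Pax5 WT (limma adjusted p = 0.0683, and 0.0204 without Pax5 G183S replicate 1), and the inositol trisphosphate receptor gene Itpr2 by 0.50 ± 0.17 with Pax5 G183S (limma adjusted p = 0.252). Panx1, which encodes a channel for nucleotides related to the LRRC8 proteins, differed by -0.36 ± 0.09 log2 units with Pax5 WT (limma adjusted p = 0.0886) and by -0.39 ± 0.09 with Pax5 G183S (limma adjusted p = 0.0950), and passed in both without Pax5 G183S replicate 1 (limma adjusted p = 0.0455 and 0.0443). Enpp3, a nucleotide-hydrolysing ectoenzyme gene, differed by 0.51 ± 0.14 with Pax5 G183S (limma adjusted p = 0.161).

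**Figure D4:**
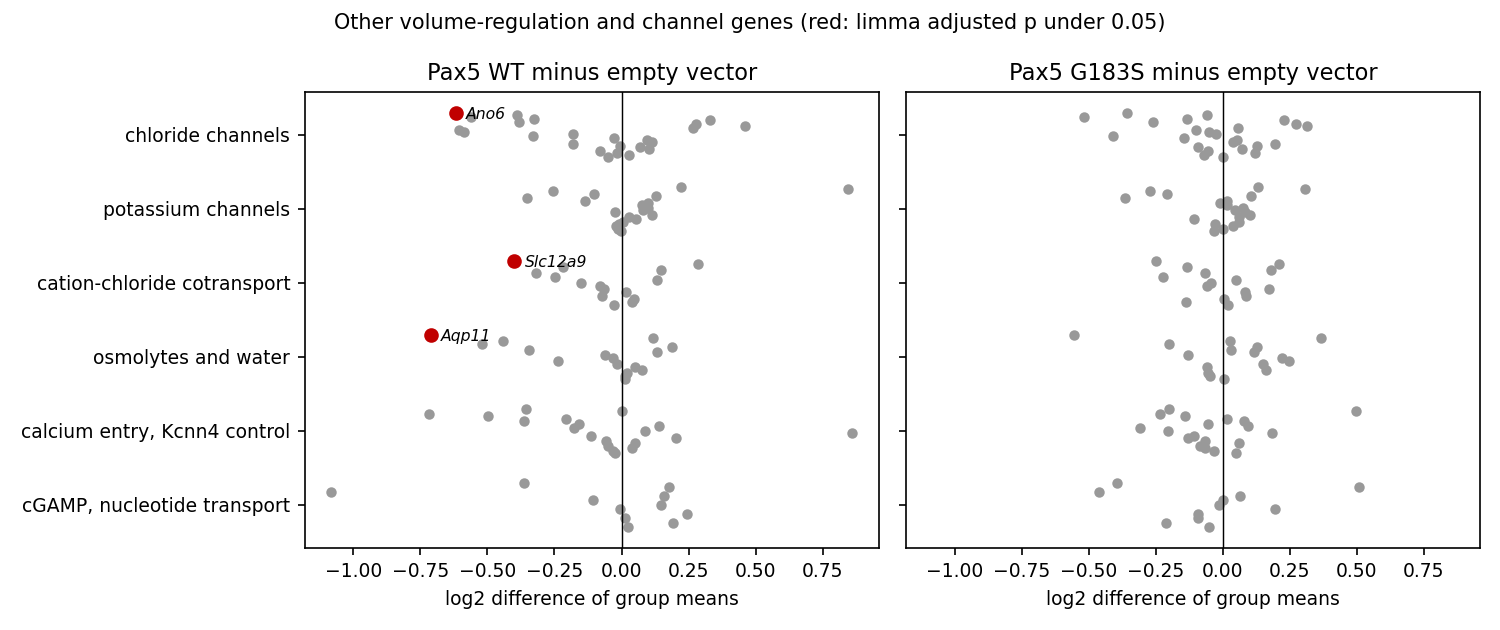
Log2 differences from empty vector (horizontal axes) of the 105 measured genes of the 6 other groups (vertical axis), with Pax5 WT on the left and Pax5 G183S on the right; each point is a gene, in red where limma's adjusted p was under 0.05. Ano6, Slc12a9 and Aqp11 are red on the left and 0 genes are red on the right.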

How the data were processed

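Trizol was used for RNA extraction, and 100 ng of it was amplified for Affymetrix whole-transcript arrays, per the labels' protocols. The authors deposited log2 values, a single one for each probe set and array; the tools RMA and Partek appear, with neither version nor role, per the submitters' processing notes, and which arrays were normalized together is not given in the sources used here. By design, RMA equalizes the distributions of arrays, which hides any change common to most genes. No genome build is given for the arrays; coordinates are those of the RefSeq tables (GRCm38.p6).

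Of 34760 probe sets, 21640 had 1 gene symbol, 1321 had several and 11799 were unnamed; 21553 symbols matched the RefSeq table by gene identifier and 0 changed. The probe set with the highest mean was used per gene, which left 19937 genes; each member has 1 probe set. limma 3.58.1 in R 4.3.3 was fitted to all 10 arrays with 1 coefficient per group (7 residual and 2.88 prior degrees of freedom), with Benjamini-Hochberg adjustment over all genes and a threshold of 0.05, two-sided. The fit was tested on simulated arrays. Figures used Python 3.11.15 and matplotlib 3.10.9.

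The members and lists were chosen with earlier results of these data known. Named genes are the members, Pax5, up to 4 called genes per pathway list or the 2 with the smallest adjusted p where none was called, the 5 genes most alike to Lrrc8e and to Kcnn4 (without predicted or clone-named genes, odorant receptors, small RNAs and antigen-receptor segments), and Sdc1, Tnfrsf17, Cd3e and Csf1r as cell type checks. Of the other cell type checks, Col1a1 read between 7.50 and 7.79 log2 units in every array, and Hbb-b1 had no probe set with 1 symbol and was not used here. Whether replicate numbers pair the arrays was not settled. Same-numbered arrays of different groups had correlations of deviations from -0.16 to 0.51 across genes. The highest were 0.51 and 0.46, between Pax5 WT and Pax5 G183S for replicates 1 and 3. Differently numbered arrays were not compared, so these values cannot decide it. Alternatives changed the scaling, features, filter, moderation, weights, arrays fitted and block, and left out each array.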

Additional observations from a re-analysis of the deposited data

Results flagged for a closer look

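In the Pax5 G183S group, replicate 1 lay at Dixon's 95% limit for 4 values for Lrrc8a, and was counted as past it. Lrrc8a read 9.12 log2 units in that array and 9.66 to 9.78 in the others, a ratio of gap to range of 0.82909, barely past the limit. Chance flags about 1 in 20 groups, and 4 genes were examined. Replicate 1 was already known to stand apart, so that rate need not hold for it. For Lrrc8b, Lrrc8c and Lrrc8d the ratio was 0.405, 0.752 and 0.695, and the array farthest out was replicate 1, 3 and 1 in that order. Lrrc8e and Kcnn4 were not examined, since they were chosen on their values in these arrays.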

How the results depend on the processing

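The 6 members were refitted under up to 18 alternatives in each comparison. Each has 1 probe set, so the use of another probe set could not be tried. Some alternatives could not alter a log2 difference, so its direction was kept by construction. These changed only the features, the filter, the moderation or the arrays fitted, or left out an array of the group not compared. The count of kept directions includes them and so overstates stability. Of 324 refits, 314 kept the direction; the 10 that turned were of Lrrc8a, Lrrc8d and Lrrc8e between Pax5 G183S and empty vector and of Lrrc8b, Lrrc8c, Lrrc8d and Kcnn4 between Pax5 G183S and Pax5 WT. With array weights, Pax5 WT replicates 1 to 3 had weights of 0.453, 3.48 and 0.565, so that replicate 2 counted most in that group. Pax5 G183S replicate 1 had a weight of 0.335. With these weights Lrrc8a passed between Pax5 WT and empty vector (log2 difference -0.48, limma adjusted p = 0.0193). Between Pax5 G183S and Pax5 WT the log2 difference of Lrrc8b became 0.15 and that of Kcnn4 -0.36. No other alternative moved Lrrc8a, Lrrc8b, Lrrc8c or Lrrc8d across the threshold against empty vector, and no other member or comparison was tested. Kcnn4 stayed between -1.20 and -0.87 with Pax5 WT and between -1.28 and -1.05 with Pax5 G183S. Leaving out 1 array at a time, Lrrc8e ranged from -2.30 to -1.42 with Pax5 WT, from -0.07 to 1.13 with Pax5 G183S and from 1.73 to 2.98 between them.

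Counts over all genes were less stable. Between Pax5 WT and empty vector 374 genes were called (176 higher, 198 lower), 318 with arrays centred on their medians (100 higher, 218 lower), 2576 with array weights, 587 with only the arrays compared and 228 with the replicate block. Without empty-vector replicates 1 to 3 there were 122, 21 and 6, without Pax5 WT replicates 1 and 2 there were 90 and 186, and without Pax5 G183S replicates 1, 2 and 4 there were 1033, 212 and 214. Between Pax5 G183S and empty vector 62 were called, 1449 with array weights and 10 with the replicate block; there were 11 and 8 without empty-vector replicates 2 and 3, 112 without Pax5 WT replicate 1, and 295, 22, 144 and 24 without Pax5 G183S replicates 1 to 4. Whether the replicate numbers pair the arrays was not settled. Of the other pathway genes, 3 were called with Pax5 WT, 22 with array weights, 1 with the replicate block and 0 to 11 with 1 array left out; with Pax5 G183S 0 were called, 14 with array weights and 0 to 2 with 1 array left out. These alternatives for the pathway genes were chosen after seeing the data. The cause of these shifts was not tested. The number of arrays limits every value, and without background signal no transcript could be called absent.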
